A study of Mus musculus with 4 samples.

Results

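Neuropeptides, small transmitters and their receptors are the signals by which nerves and neighbouring cells speak to group 2 innate lymphoid cells (ILC2), the tissue lymphocytes that make type 2 cytokines without rearranged antigen receptors. A set of 9 genes of this axis was followed by name: the ligand precursors Penk and Calca, the receptors Nmur1, Calcrl, Vipr1 and Vipr2, the receptor accessory proteins Ramp1 and Ramp3, and the enzyme Tph1. Of these 9, 8 had at least 1 probe set carrying their symbol alone, among 18194 such genes on the array. Calca, the precursor of calcitonin and CGRP (chr7:114625981-114636910, GRCm38.p6), was not analysed here. The 8 genes were represented by 13 probe sets, and the brightest of each gene gave its value. The other probe sets served as a check.

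The Ets1-deleted group held 2 arrays of ILC2 from C57BL/6 mice lacking Ets1, the gene of an ETS family transcription factor, and the control group held 2 arrays from littermates. Before RNA was taken, all 4 cell preparations spent 2 weeks in culture with IL-7 and IL-33. Their feeder layer was OP9-DL1, stromal cells from bone marrow that carry the Notch ligand DL1. RNA was taken from sorted ICOS-positive cells. The sources used here do not give how or in which cells Ets1 was deleted, the age of the mice, or whether arrays of a group came from separate animals, and the p-values therefore cover no more than the spread of these samples, which may be technical.

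As background, neuromedin U acts on Nmur1, a receptor that signals through Gq and calcium and drives cytokine release from ILC2. CGRP acts on a receptor made of the membrane protein Calcrl with the accessory protein Ramp1, and raises cyclic AMP through Gs. Calcrl paired with Ramp2 or Ramp3 responds to adrenomedullin instead. Vasoactive intestinal peptide acts on Vipr1 and Vipr2, which also couple to Gs. Penk is the precursor of the enkephalin opioid peptides, and Tph1 is the rate-limiting enzyme of serotonin synthesis outside the brain.

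In the Ets1-deleted arrays the ILC2 members did not move together. Ramp1 and Calcrl, which form the CGRP receptor, rose by 4.41-fold and 1.61-fold. Penk, Nmur1 and Tph1 fell, by 3.20-fold, 1.60-fold and 1.55-fold on the linear scale. Ramp3 did not pass the test. Vipr1 and Vipr2 were too dim for it on the mean of 4 arrays. Both Vipr1 controls (108 and 114 intensity units) and control 1 of Vipr2 (103) nevertheless lay above the limit of 97.4 units. Of 6 tested members, 5 (83.3%) passed, 2 higher and 3 lower, where over all 10873 tested genes 26.7% passed (limma, Benjamini-Hochberg adjusted p at 0.05), 13.9% higher and 12.8% lower. All 6 tested members reached the limit for dim genes (97.4 intensity units) in both groups, so none entered the test through 1 group only. The members were chosen with earlier results of these data known, so their share of calls is no independent result.

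**Figure D1:**
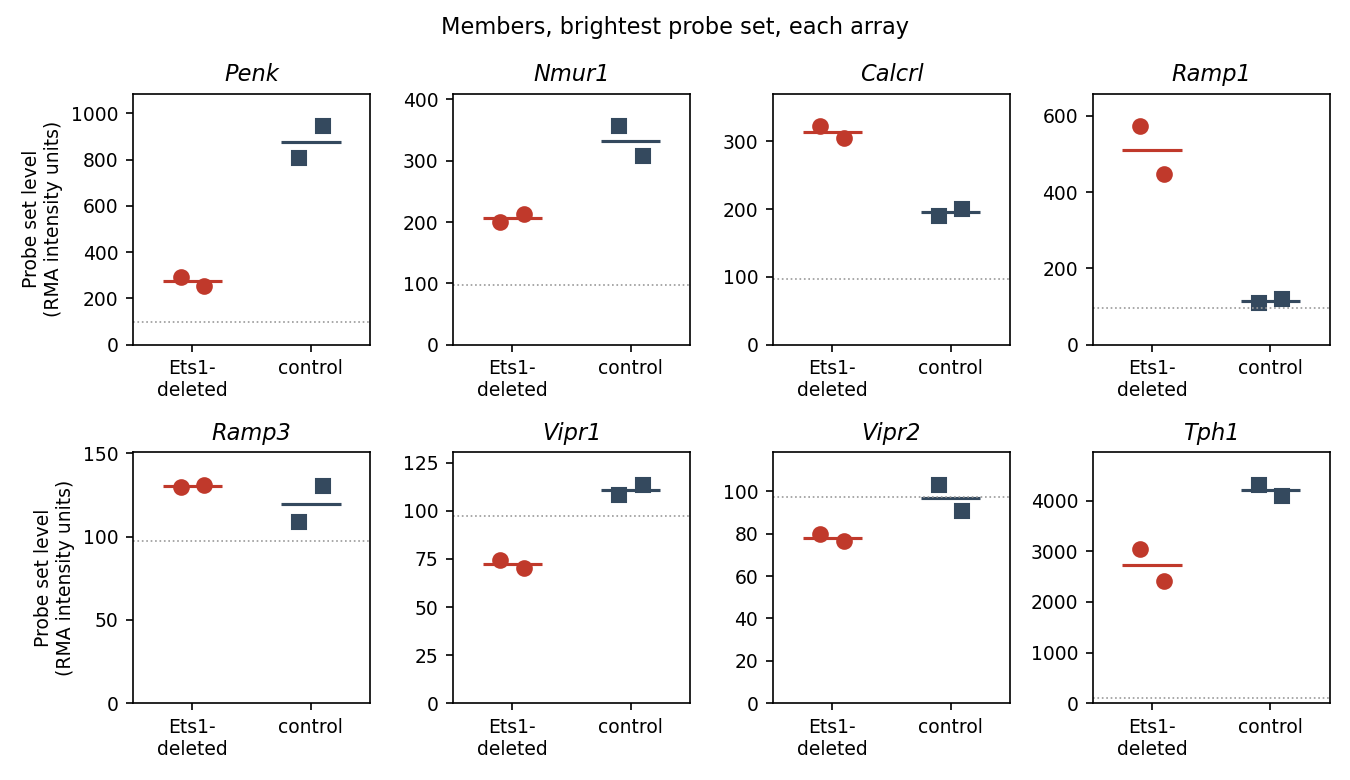
Level of each member's brightest probe set (vertical axis, RMA intensity units, starting at 0) in the 2 Ets1-deleted arrays (circles) and the 2 control arrays (squares); bars are group means and the dotted line is the dim limit of 97.4 units. Penk, Nmur1 and Tph1 sit lower and Calcrl and Ramp1 higher in Ets1-deleted arrays with no overlap. Ramp3 overlaps, and Vipr1 and Vipr2 have values on both sides of the dim limit.

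The deletion itself was checked first. Ets1 read 138 and 180.2 intensity units in the Ets1-deleted arrays, against 1272 and 1231 in the controls on its brightest probe set, and its other 3 probe sets were lower as well. Array medians lay between 96.5 and 97.7 units. The defining ILC2 gene Gata3 was bright throughout (3032 and 2828 units in the Ets1-deleted arrays, 2807 and 2741 in the controls), and Il7r likewise, but the ILC2 list as a whole moved: of its 15 tested genes 7 rose, 4 fell and 4 did not pass. Thy1 (1.91), Arg1 (1.56) and Rora (1.29) were among the higher ones, and the lower ones were Klrg1 (-1.60), Il4 (-0.68), Ptgdr2 (-0.45) and Icos (-0.38), the marker of the sort (log2 differences). Markers of other cells moved with the groups: 11 of 13 tested myeloid genes, 8 of 10 mast cell and basophil genes and 4 of 7 T cell genes were higher in the Ets1-deleted arrays. Over all tested genes 13.9% were higher and 12.8% lower. The myeloid gene Ctss (-0.84) and the T cell gene Zap70 (-1.13) fell. Both controls reached the dim limit for 12 myeloid, 6 mast cell and basophil and 4 T cell genes. Some others, such as Cpa3 (85.9 and 78.3 units in the controls), Mitf and Hdc, entered the test through their Ets1-deleted values. Of 5 tested neuronal and glial genes 3 were higher and 1 lower, and the 9 untested ones lay between 54.3 and 117 units. In RNA of a sorted population, more cells of a type and more RNA per cell cannot be told apart. The 2 arrays per group limit the precision, and n = 2 per group applies to every value below.

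Among the ligand precursors, Penk (chr4:4133536-4138815, GRCm38.p6) had 294 and 253 intensity units in the Ets1-deleted arrays, against 806 and 944 in the controls. Every Ets1-deleted array lay far under every control. The log2 difference was -1.68 ± 0.13 (SE from limma, 95% interval -1.95 to -1.40, adjusted p = 1.23e-06). Of the tested genes, 42 fell further. Penk is also made by fibroblasts, and of 12 tested genes of OP9 stroma and fibroblasts 3 fell and 1 rose. By sign alone 9 of the 12 were lower, with a list median of -0.27, the same direction as Penk. The summed level of the 16 measured stromal genes was 12022 and 12195 units in the Ets1-deleted arrays, against 12631 and 11348 in the controls, which overlap. Vim made up most of that sum and Timp3 was the gene that rose (2.55). Without these 2, an omission chosen after seeing the data, the sums were 3210.1 and 3378 units in the Ets1-deleted arrays, against 4006 and 3888 in the controls, lower with no overlap. Timp3 had 879 and 751 units in the Ets1-deleted arrays, against 126 and 152 in the controls. With Timp3 kept and Vim alone left out, the sums of the groups overlap. The gap therefore follows from leaving out Timp3, the gene that rose. The part of stromal RNA in the Penk difference was not tested. Penk was measured by a single probe set.

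The precursors that could supply ligands to the other members were faint. Nmu, which encodes neuromedin U, had 69.99 and 65.05 intensity units in the Ets1-deleted arrays and 69.86 and 66.25 in the controls. Vip, the precursor of vasoactive intestinal peptide, had 56.7 and 59.1 units, against 63.3 and 57.7 in the controls. Calcb, which encodes the second form of CGRP, had 69.0 and 78.1 units, against 85.2 and 82.7. All 3 lay under the dim limit in every array and were not tested. Over the list of 22 neuropeptide precursors, 20 had a probe set and 5 were tested, of which 1 rose and 2 fell. The 15 untested ones lay between 56.7 and 103 units in every array.

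Adm, which encodes adrenomedullin, was the precursor that rose. It had 2225 and 1948 units in the Ets1-deleted arrays, against 728 and 542 in the controls, a log2 difference of 1.73 ± 0.14 (limma, adjusted p = 3.13e-06). Its other bright probe set gave 0.59, and the mean over its probe sets 1.16. Nmb, the neuromedin B precursor, fell to 246 and 239 units in the Ets1-deleted arrays, against 402 and 472 in the controls (-0.85 ± 0.12, adjusted p = 0.000202 with limma). Pomc and Sst, the other tested precursors, gave -0.32 and 0.01 and did not pass.

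Nmur1, the neuromedin U receptor (chr1:86386242-86389361), had 200.5 and 213 intensity units in the Ets1-deleted arrays, against 356 and 307 in the controls. The groups did not overlap, and the gap between them was wider than the spread in either group. The log2 difference was -0.68 ± 0.12 (limma, 95% interval -0.94 to -0.42, adjusted p = 0.00105). Its related receptor Nmur2 stayed between 77.9 and 82.2 units in all 4 arrays. Nmur1 also had only 1 probe set.

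Calcrl (chr2:84330626-84425405) had 322 and 305 intensity units in the Ets1-deleted arrays, against 189.8 and 201 in the controls, on its brightest probe set. The arrays of a group lay close together and the groups were well apart. The log2 difference was 0.68 ± 0.11 (limma, 95% interval 0.44 to 0.92, adjusted p = 0.000607). The second Calcrl probe set was more scattered, with 167 and 113 units in the Ets1-deleted arrays and 69.6 and 98.1 in the controls, and gave 0.73 ± 0.22. The last was near the floor (58.7 and 71.6 units in the Ets1-deleted arrays, 58.4 and 53.01 in the controls) and gave 0.22. All 3 were therefore higher in the Ets1-deleted arrays, by unequal amounts.

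Ramp1, which carries Calcrl to the cell surface and shapes the CGRP binding site, gave the largest log2 difference of the tested members on the brightest probe sets, though not on the mean over probe sets, where Penk (-1.68) changed more than Ramp1 (1.04). It lies at chr1:91179822-91225196 and had 573 and 448 intensity units in the Ets1-deleted arrays, against 109 and 121 in the controls. The log2 difference was 2.14 ± 0.13 (limma, 95% interval 1.85 to 2.43, adjusted p = 2.63e-07), and 55 of the 10873 tested genes rose by more. Its second probe set gave 0.82 ± 0.11, with 139 and 168 units in the Ets1-deleted arrays against 88.5 and 84.1 in the controls. The dimmest one gave 0.15 ± 0.08, with 87.7 and 90.25 units against 80.05 and 80.8. The size of the Ramp1 rise thus depended on the probe set, while the direction was shared: averaged over its 3 probe sets it was 1.04 (adjusted p = 3.46e-05), and with each array's floor subtracted it was 2.94 (adjusted p = 2.05e-05, both with limma).

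**Figure D2:**
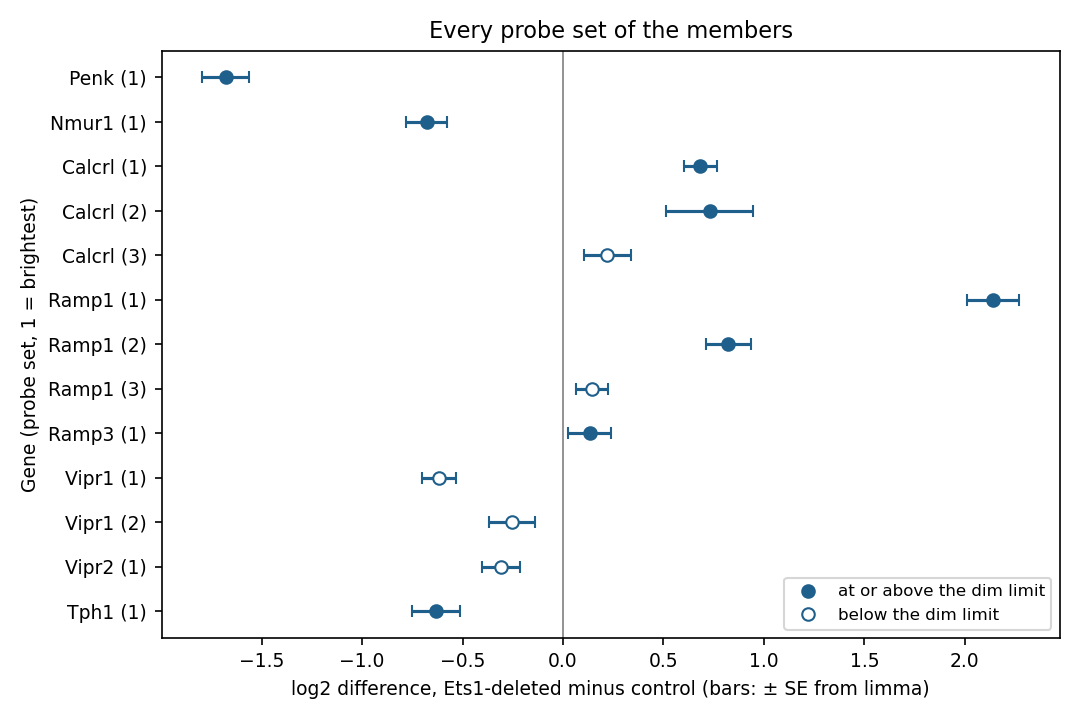
Log2 difference of Ets1-deleted minus control (horizontal axis) for each of the 13 probe sets of the members, with bars of ± SE from a limma fit over all probe sets; filled points reach the dim limit and open points do not. Probe sets of a gene point the same way, and the brightest Ramp1 probe set, at 2.14, stands well beyond its second, at 0.82.

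Ramp2, an accessory protein of the same family that was not among the 9 members, moved the other way. It had 103 and 97.7 intensity units in the Ets1-deleted arrays, against 288 and 339.7 in the controls. The log2 difference was -1.64 ± 0.12 (limma, 95% interval -1.90 to -1.38, adjusted p = 9.93e-07). With each array's floor subtracted it was -2.53, since the Ets1-deleted arrays lay near the floor. Ramp3, the remaining accessory protein (chr11:6658506-6677478), had 129.7 and 131 units in the Ets1-deleted arrays and 109 and 130.2 in the controls. Those values overlap, and the log2 difference was 0.13 ± 0.12 (limma, adjusted p = 0.471), with a 95% interval of -0.13 to 0.40. Of the 3 RAMP genes, Ramp1 rose and Ramp2 fell. For Ramp3 no change was called, and a change anywhere within that interval remains compatible with the 4 arrays. Its difference was 0.00 without control replicate 1 and 0.26 without control replicate 2.

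**Figure D3:**
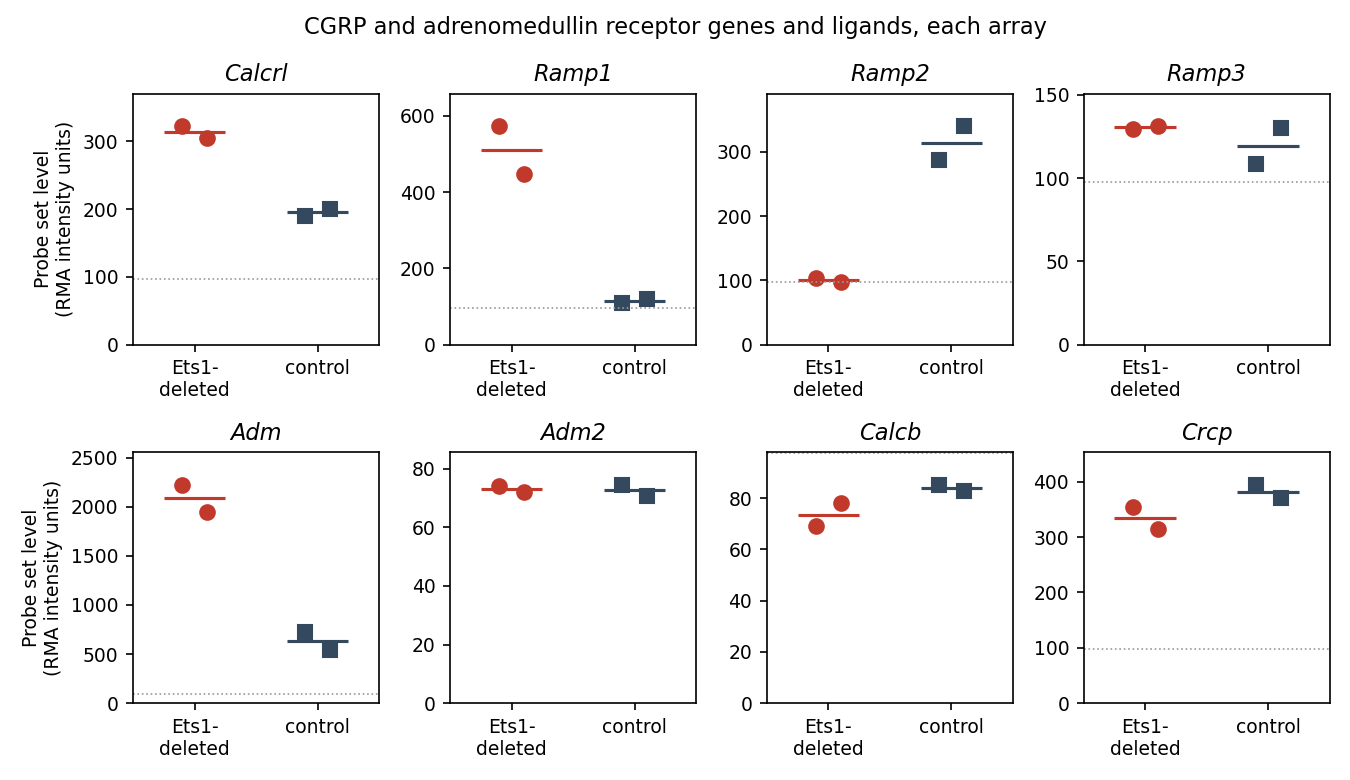
Levels (vertical axes, RMA intensity units, starting at 0) of the CGRP and adrenomedullin receptor genes, their ligand precursors and Crcp in the 2 Ets1-deleted arrays (circles) and 2 control arrays (squares), with group means as bars and the dim limit of 97.4 units dotted where it falls inside the panel. Ramp1, Calcrl and Adm were higher and Ramp2 lower in Ets1-deleted arrays, while Adm2 and Calcb stayed below the dim limit in every array.

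Crcp, which encodes a small protein that helps the CGRP receptor couple to its G protein, had 355 and 314 units in the Ets1-deleted arrays and 394 and 369.5 in the controls, a log2 difference of -0.19 ± 0.12 that did not pass (limma, adjusted p = 0.251). Calcr, the calcitonin receptor and the other partner of RAMP proteins, lay between 56.4 and 60.9 units in all arrays. Calcrl with RAMP proteins is abundant in endothelial cells. The endothelial markers Cdh5, Kdr, Tek, Emcn and Tie1 lay under the dim limit in every array. The 2 tested endothelial genes were brighter, and 0 of them passed. Pecam1 had 482 and 585 units in the Ets1-deleted arrays, against 583 and 641 in the controls. Egfl7 had 181 and 157 units, against 131 and 184. The summed level of the 8 endothelial genes was 1076 and 1154 units in the Ets1-deleted arrays, against 1144 and 1248 in the controls. Myeloid cells can carry this receptor too: the 16 measured myeloid genes summed to 8947 and 8325 units in the Ets1-deleted arrays, against 7211 and 7283 in the controls. The part of such cells in the Ramp1 and Calcrl rises was not tested.

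Vipr1 and Vipr2 were dim. Vipr1 (chr9:121642716-121672954) had 74.3 and 70.3 intensity units in the Ets1-deleted arrays, against 108 and 114 in the controls, and its other probe set had 74.5 and 64.9 units against 90.2 and 76.3. Vipr2 (chr12:116077420-116148637) had 79.9 and 76.4 units in the Ets1-deleted arrays, against 103 and 90.9 in the controls. In each of these probe sets the Ets1-deleted arrays were the lower ones, with no overlap. Of the 8 measured members 7 did not overlap, 2 higher and 5 lower, a count that includes the untested Vipr1 and Vipr2. Among the 6 tested members 5 did not overlap, the called ones. Of all tested genes 62.6% did not, 30.9% higher and 31.7% lower. Neither Vipr1 nor Vipr2 reached the dim limit on the mean of 4 arrays. In a fit of all 18194 genes without that limit, Vipr1 gave -0.62 ± 0.08 (adjusted p = 0.00283) and Vipr2 -0.31 ± 0.09 (adjusted p = 0.0700, both with limma). Adcyap1r1, the related PACAP receptor, lay between 79.2 and 93.6 units.

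Tph1 (chr7:46644641-46672537) was bright in every array. It had 3038 and 2418 intensity units in the Ets1-deleted arrays, against 4312 and 4086 in the controls. The Ets1-deleted arrays were the lower ones but differed among themselves more than the controls did. The log2 difference was -0.63 ± 0.13 (limma, 95% interval -0.91 to -0.35, adjusted p = 0.00307), and it ranged from -0.80 to -0.47 with each array left out in turn. Tph1 is also a mast cell gene, and the 15 measured mast cell and basophil genes summed to 4575 and 4402 units in the Ets1-deleted arrays, against 2754 and 2764 in the controls, which is the opposite direction to Tph1. Without Cpa3, likewise left out after seeing the data, the sums were 3077 and 3140.3 units in the Ets1-deleted arrays, against 2669 and 2686 in the controls. The mast cell protease gene Cpa3 was among the 8 of 10 tested genes of this list that rose (4.07). The IgE receptor genes Fcer1a and Ms4a2 were dim and not tested. Fcer1a had 66.4 and 63.7 units in the Ets1-deleted arrays, against 55.1 and 60.2 in the controls. Ms4a2 had 92.7 and 103.6 units, against 72.0 and 63.7, and both genes were higher with no overlap. The part of mast cells in the Tph1 value was not tested.

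The 5 calls were kept under most other settings. For each of Penk and Ramp1, 15 of 16 alternatives kept the call, and for Nmur1, Calcrl and Tph1 14 of 16. With each gene's own variance alone, 0 of the 5 passed, at adjusted p between 0.107 and 0.233, and over all genes only 13 did, so the calls rest on variance shared across genes by limma. With 2 arrays a group, 0.333 is the smallest two-sided p that an exact permutation test allows.

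**Figure D4:**
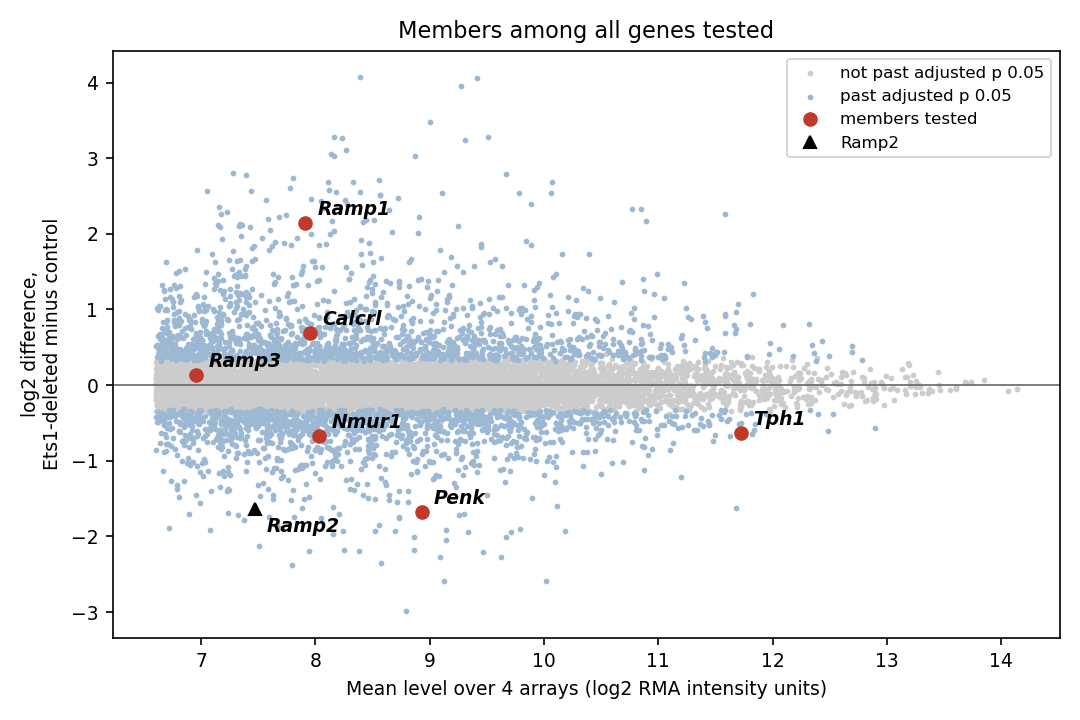
Mean level over the 4 arrays (horizontal axis, log2 intensity units) against the log2 difference of Ets1-deleted minus control for the 10873 tested genes; red circles are the 6 tested members and the black triangle is Ramp2. Ramp1 (2.14) lies above and Penk (-1.68) and Ramp2 (-1.64) below most blue points, which passed an adjusted p of 0.05, and Ramp3 lies among the grey ones, which did not.

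The windows before the transcript starts of called members are shown because Ets1 is a DNA-binding factor whose family recognises the core GGAA. RefSeq (GRCm38.p6) windows were found for 8 of the 9 members, all but Penk. The lines give the 250 bases before the start, 5′ to 3′ on the gene's strand, with capitals marking CAGGAAG or CCGGAAG (longer forms of the ETS core, which they contain) and TGACG (part of the cyclic AMP response element TGACGTCA), each on either strand. These motifs were picked after the sequences had been seen. Ramp1 lies on the plus strand (chr1:91179572-91179821), and Calcrl (chr2:84425267-84425516), Nmur1 (chr1:86389362-86389611) and Tph1 (chr7:46667378-46667627) on the minus strand. Nmur1 and Tph1 each had a further annotated start that is not printed, and for Tph1 the start with a TATAA match is given. The starts used for Calcrl and Tph1 lie inside the gene intervals given above. The printed Calcrl window is therefore partly inside its gene interval, its CAGGAAG included, and the Tph1 window wholly inside.
Ramp1: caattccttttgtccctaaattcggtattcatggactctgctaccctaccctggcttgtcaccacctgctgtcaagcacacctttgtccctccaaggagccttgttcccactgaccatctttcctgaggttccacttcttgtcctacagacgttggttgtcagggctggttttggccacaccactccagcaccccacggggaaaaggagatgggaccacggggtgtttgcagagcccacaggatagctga
Calcrl: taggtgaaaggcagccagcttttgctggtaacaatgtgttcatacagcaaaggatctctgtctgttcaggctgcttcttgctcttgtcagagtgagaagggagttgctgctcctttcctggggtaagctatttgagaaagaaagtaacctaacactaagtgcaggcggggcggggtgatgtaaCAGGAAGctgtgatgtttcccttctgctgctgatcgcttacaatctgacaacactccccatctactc
Nmur1: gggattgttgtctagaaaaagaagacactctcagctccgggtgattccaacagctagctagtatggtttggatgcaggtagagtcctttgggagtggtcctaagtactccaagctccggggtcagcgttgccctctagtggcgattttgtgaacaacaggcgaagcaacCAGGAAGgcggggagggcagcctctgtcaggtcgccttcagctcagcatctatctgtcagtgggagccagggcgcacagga
Tph1: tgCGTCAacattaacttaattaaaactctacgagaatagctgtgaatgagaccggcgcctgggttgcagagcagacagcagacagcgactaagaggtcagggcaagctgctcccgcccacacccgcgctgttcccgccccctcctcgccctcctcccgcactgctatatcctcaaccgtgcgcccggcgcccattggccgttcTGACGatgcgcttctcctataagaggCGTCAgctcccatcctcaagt

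The printed windows of the risen Calcrl and the fallen Nmur1 each held 1 CAGGAAG, beginning at -67 and -81 from the start. That motif was held by 10.8% of all 32851 windows of this length. The Nmur1 window that is not printed held neither longer form, nor did Ramp1 or both Tph1 windows. CCGGAAG, found in 6.91% of all windows, occurred among the members only in Ramp3, the tested gene that did not pass. The core GGAA was present in every member window, but also in 93.4% of all windows. The printed Tph1 window held TGACG at 3 places and its other window 1, and the windows of Calca and Vipr1 held 1 each, beginning at -65 and -13, against 17.8% of windows with at least 1. The full TGACGTCA, held by 1.55% of windows, was in none of the members' windows. A match is a description of letters and not a site.

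Signalling genes below these receptors were examined next, in lists chosen for their role but with earlier results of these data known. Their counts are therefore descriptions and no independent support. Unlike the tested members, some list genes reached the dim limit in 1 group only. Pcsk1, Adcy6 and Hdc did so in the Ets1-deleted arrays and Cpm in the controls. Over all tested genes 26.7% were called, 13.9% higher and 12.8% lower, which is the share to set beside every list. Of 17 tested genes of the Gq branch, through which Nmur1 acts, 8 fell and 1 rose (52.9% called), with a median log2 difference of -0.31 against -0.0037 over all tested genes. Gnaq, the Gq alpha subunit itself, had 858 and 936 intensity units in the Ets1-deleted arrays, against 1530.4 and 1776 in the controls (-0.88 ± 0.12, limma adjusted p = 0.000161), and its 7 probe sets were all lower, from -1.24 to -0.38. Plcb4, a phospholipase C that Gq activates, fell further, to 215 and 210.1 units against 725 and 904 in the controls (-1.93 ± 0.13). The protein kinase C genes Prkcb (-1.97 ± 0.13) and Prkcq (-1.14 ± 0.12) fell as well, while Prkca and Prkcd gave 0.22 and 0.03 and did not pass. The Gq brake Rgs1 fell by 0.73 on the log2 scale and Rgs18 rose by 0.68 (1.22 with the floor subtracted). Averaged over their probe sets, Plcb4 and Prkcb gave -1.22 and -1.11. The remaining falls, in Plcb2, Plcb3 and Rgs2, were between -0.49 and -0.34. The Plcb3 call was lost without Ets1-deleted replicate 1 (-0.40, adjusted p = 0.0579) or control replicate 2 (-0.33, adjusted p = 0.178), and the Rgs2 call with any array left out (adjusted p from 0.0782 to 0.200, limma).

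In the Gs and cyclic AMP branch, through which Calcrl and the VIP receptors act, 9 of 26 tested genes fell and 3 rose. That is 46.2% called, against 26.7% of all tested genes, with a median of -0.16. Without control replicate 1 the falls numbered 6. The Gs alpha subunit gene Gnas had 5614 and 5649 units in the Ets1-deleted arrays and 5811 and 4944 in the controls, which overlap (0.07 ± 0.12). Prkacb, a catalytic subunit of protein kinase A, fell to 434 and 497 units in the Ets1-deleted arrays, against 957 and 918 in the controls (-1.01 ± 0.12, limma adjusted p = 4.13e-05). Among phosphodiesterases, which break down cyclic AMP, Pde8a fell to 106 and 109 units against 409 and 390.02 in the controls (-1.89 ± 0.11), and Pde7a rose to 807 and 900.02 units against 426 and 424 (1.00 ± 0.11). All 7 bright Pde7a probe sets were higher, by as little as 0.22, and their mean gave 0.65. The receptor kinase gene Grk5 fell (-1.23 ± 0.12) and the arrestin gene Arrb1, which also acts in receptor shut-off, rose (1.00 ± 0.12). Adcy6, an adenylyl cyclase, rose by 0.78 (1.67 with the floor subtracted), with both controls (84.5 and 82.7 units) under the dim limit. The mean over probe sets gave -0.64 for Prkacb and -0.19 for the anchoring protein gene Akap13, whose call (-0.71) was then lost (limma adjusted p = 0.130). Grk6 fell by 0.56 on the log2 scale. The Pde4b call (-0.50) was lost without control replicate 1 (adjusted p = 0.0904) and the Pde4d call (-0.51) without Ets1-deleted replicate 1 (-0.33, adjusted p = 0.0938). Pde4a (-0.34) and Adcy4 (-0.36) each lost their call in 3 of the 4 fits with an array left out.

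CREB factors and genes that cyclic AMP induces through them came last on the Gs branch. Of 15 tested, 1 rose and 1 fell (13.3% called), a share under the 26.7% of all genes, with a median of 0.04. Nr4a1, an orphan nuclear receptor, rose to 218 and 235 units in the Ets1-deleted arrays, against 132 and 136 in the controls (0.76 ± 0.11, limma adjusted p = 0.000292). Crebbp, a coactivator of CREB, gave -0.44 ± 0.12, and that call was lost without Ets1-deleted replicate 2 (-0.29, adjusted p = 0.135) and after subtraction of the array floor (limma adjusted p = 0.0649). The list's falls numbered 2 without control replicate 1, and its rises 2 without Ets1-deleted replicate 2. Crem, Fos and Dusp1 gave 0.20, -0.23 and -0.06 and did not pass.

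**Figure D5:**
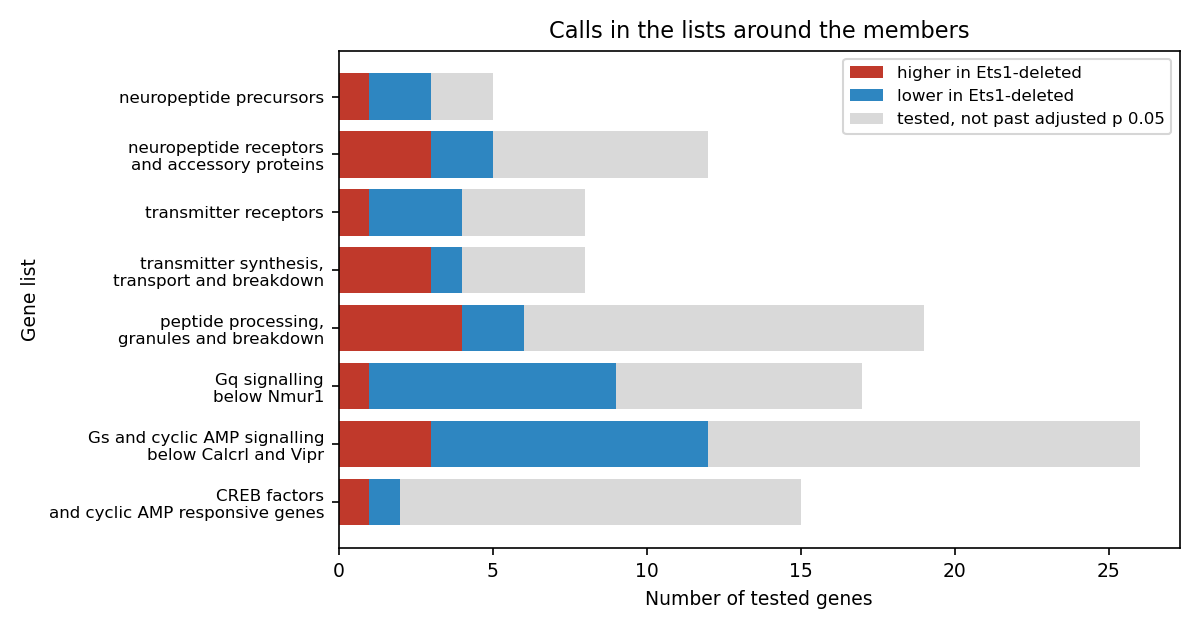
Number of tested genes (horizontal axis) in each of the 8 lists around the members, split into those higher in Ets1-deleted arrays, those lower and those not past an adjusted p of 0.05 in limma. The Gq list has 8 lower and 1 higher of 17, the Gs and cyclic AMP list 9 lower and 3 higher of 26, and the CREB list 1 of each among 15.

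Of 19 tested genes of peptide processing, secretory granules and peptide breakdown, not all of them enzymes, 4 rose and 2 fell and 13 did not pass. The share called, 31.6%, was close to the 26.7% of all tested genes, and the list's median was 0.04. Pcsk1, the convertase that cuts neuropeptide precursors such as proenkephalin, had 301 and 346 units in the Ets1-deleted arrays, against 81.5 and 82.9 in the controls (1.97 ± 0.12, limma adjusted p = 1.56e-07). Pcsk1 lay under the dim limit in both controls, so it entered the test through its Ets1-deleted values. Its level was higher in the arrays where that of Penk was lower. With each array's floor subtracted the Pcsk1 difference was 3.35. Dpp4, a surface peptidase that trims peptides including VIP and neuropeptide Y, had 649.7 and 588 units against 107 and 121 in the controls (2.44 ± 0.12; 1.01 as the mean over its probe sets). Anpep, an aminopeptidase that degrades enkephalins, rose by 0.69 (1.30 with the floor subtracted), and the carboxypeptidase gene Cpm fell to 91.8 and 75.2 units against 186 and 160.2 in the controls (-1.05 ± 0.13; -2.15 with the floor subtracted). The other gene that fell was Rcn1 (-0.50; -0.28 as the mean over its probe sets), a calcium-binding protein of the endoplasmic reticulum. The rise of Dpp3 (0.38) was lost without Ets1-deleted replicate 2 (adjusted p = 0.104) or control replicate 1 (adjusted p = 0.273). Mme, the main enkephalin-degrading peptidase, lay between 70.55 and 83.7 units in all arrays.

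Around Tph1, 8 genes of transmitter synthesis, transport and breakdown were tested, of which 3 rose and 1, Tph1 itself, fell (4 of 8 called, median -0.09). Gch1, which makes the first step of the cofactor that tryptophan hydroxylase needs, rose to 806 and 737 units in the Ets1-deleted arrays, against 334 and 404 in the controls (1.07 ± 0.12, limma adjusted p = 4.77e-05). Later cofactor enzymes, Pts, Spr and Qdpr, gave -0.29, -0.10 and -0.07 and did not pass. Slc18a2, which loads monoamines into vesicles, gave 0.42 ± 0.12, a call lost without control replicate 1 (0.32, adjusted p = 0.179). Hdc, for histamine synthesis, gave 0.38 ± 0.11, and its other bright probe set 0.86. With each array left out in turn the brightest one gave 0.34 to 0.42, and its call was lost without Ets1-deleted replicate 1 or either control. Both Hdc controls (91.5 and 90.5 units) lay under the dim limit. Mast cell genes, a list that includes Hdc, were higher in the same arrays. Without control replicate 1 the list's rises numbered 1, and its falls numbered 2 without that array or Ets1-deleted replicate 2. Tph2 and Ddc, the neuronal hydroxylase and the next enzyme of serotonin synthesis, stayed between 56.1 and 82.5 units.

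Receptors for small transmitters were mostly dim: 25 of 32 had a probe set and 8 were tested, of which 3 fell and 1 rose (4 of 8 called, median -0.02). Htr1b, a serotonin receptor that couples to Gi, had 223 and 243 units in the Ets1-deleted arrays, against 749.9 and 812 in the controls (-1.75 ± 0.11, limma adjusted p = 3.47e-07), and its other probe set gave -1.41. Gabbr1, a subunit of the metabotropic GABA receptor, gave -0.54 ± 0.14. That call was lost without Ets1-deleted replicate 1 (-0.39, adjusted p = 0.0686) or control replicate 1 (-0.42, adjusted p = 0.0619). Grik5 (-0.32) lost its call with any array left out (adjusted p from 0.0975 to 0.283), and Gria3 (0.54) without control replicate 2 (0.28, adjusted p = 0.266, limma). The Gria3 call was also lost with no limit on dim genes (adjusted p = 0.0631) and with the floor subtracted (1.26, adjusted p = 0.0509, limma). Both are subunits of glutamate receptors. The falls of this list numbered 1 without Ets1-deleted replicate 1 or control replicate 1, and 2 without Ets1-deleted replicate 2 or control replicate 2. Its rises numbered 0 without control replicate 2.

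Other neuropeptide receptors gave little to compare. Of 28 receptor and accessory genes with a probe set, 12 were tested, with 3 rises and 2 falls (41.7% called, median 0.15). Beside Ramp1, Calcrl, Nmur1 and Ramp2, the call in this list was Sort1, which encodes the neurotensin-binding sorting receptor sortilin (0.55 ± 0.12). It was lost without control replicate 1 (0.43, limma adjusted p = 0.0548), which left 2 rises. The opioid receptor genes Oprm1, Oprd1, Oprk1 and Oprl1, to which Penk peptides and their relatives bind, lay between 61.6 and 84.6 units in every array.

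Genes whose 4 values ran closest to those of a called member were listed by the Euclidean distance between centred log2 values over the 4 arrays. For Penk they were Kctd17, Ramp2 and Pld1, at distances of 0.102, 0.104 and 0.117. For Ramp1 they were Ptger2, Homer2 and Il17a (0.0669, 0.0833 and 0.145). Nmur1 was nearest to Iffo2, Elf1 and Krba1, Calcrl to Dhx34, 5033406O09Rik and Setmar, and Tph1 to E030024N20Rik, Ctla2b and Madd, at distances up to 0.0660. The measure rests on 4 arrays in 2 groups.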

How the data were processed

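RNA of sorted ICOS-positive cells was hybridised to Affymetrix arrays, 2 per group. The authors deposited 1 intensity per probe set and array, summarised by RMA per the submitters' processing notes. The sources used here name no software or version for it. With a lowest value of 39.5 and a highest of 23291 the scale was taken as linear, an inference from the values. The intensities were turned into log2 with no further normalization. Of 45101 probe sets, 34958 carry 1 gene symbol in the platform annotation, 932 several and 9211 are not listed. The probe set of highest mean log2 over 4 arrays stood for its gene, and genes whose mean reached the median of all probe sets (97.4 units) were tested: 10873 of 18194.

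The test was lmFit and eBayes of limma (3.58.1) in R 4.3.3 for the two-sided difference of Ets1-deleted minus control, adjusted over all tested genes, with 2 residual and 9.75 prior degrees of freedom, and was checked on simulated data. The rule for named genes took the members, Ets1, list genes past the threshold (otherwise the 4 of smallest p), defining markers and the 3 nearest patterns of each called member. Other genes named beside a member, such as dim ligands and receptors, were chosen after their values were seen. The members and lists were chosen with earlier results of these data known. Alternatives were other normalizations, filters, probe set rules, variance models, a replicate block, a floor of 16 units after subtracting each array's 5th percentile, a 1.5-fold minimum and each array left out. Same-numbered arrays are not stated to be paired.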

Additional observations from a re-analysis of the deposited data

How the results depend on the processing

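No result of a member reversed. With each gene's own variance in place of limma's shared one, 0 members were called lower and 0 higher (main values 3 and 2), although 4 of 6 had an unadjusted p under 0.05; the log2 differences stayed the same, with adjusted p of 0.115 for Penk (-1.68), 0.165 for Nmur1 (-0.68), 0.107 for Calcrl (0.68), 0.112 for Ramp1 (2.14) and 0.233 for Tph1 (-0.63). In that fit the listed signalling genes gave 0 lower and 0 higher calls (main values 28 and 17), with 41 of 110 at an unadjusted p under 0.05, and all tested genes gave 13 calls (main value 2900), with 2607 at that unadjusted level. Tested against a 1.5-fold minimum (limma's treat), 1 member was lower (Penk) and 1 higher (Ramp1), while Nmur1 (-0.68), Calcrl (0.68) and Tph1 (-0.63) had an adjusted p of 1. That test left 484 calls in all, with 10 lower and 6 higher among the listed genes. The stricter filter on dim genes left 8 higher calls there, with fewer genes tested, and 1 row per probe set gave 4797 calls among more rows tested. The replicate block, with numbers not known to pair arrays (correlation of same-numbered deviations 0.167), gave 3252 calls in all, 3 members lower and 2 higher. With each array left out in turn, the members gave 3 lower and 2 higher in all 4 fits, with differences from -1.79 to -1.56 for Penk, -0.79 to -0.57 for Nmur1, 0.64 to 0.73 for Calcrl, 1.96 to 2.32 for Ramp1 and -0.80 to -0.47 for Tph1. In those fits the array left alone in its group was assumed to vary like the other group. Levels near the dim limit, as in Vipr1, Vipr2 and Ramp3, limit what 4 arrays can show.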
